A study of Mus musculus with 1753 samples.

Results

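The nuclear genome of the mouse encodes most subunits of the oxidative phosphorylation machinery, and their transcripts were examined here in single cells sorted from skeletal muscle. Members were chosen by name only: a row of the deposited count table was taken when its Ensembl identifier mapped to a protein-coding symbol that starts with Ndufa, Ndufb, Ndufc, Ndufs, Ndufv, Sdh, Uqcr, Cox4, Cox5, Cox6, Cox7, Cox8 or Atp5. This gave 97 of 46517 genes. They comprise 46 genes of complex I, 8 of complex II, 8 of complex III, 18 of complex IV and 17 of complex V. The prefixes also take in genes that are not subunits, namely 12 assembly factors (8 Ndufaf and 4 Sdhaf genes) and the coupling factor B gene Atp5s. Of the 84 subunit genes, 76 are common forms, 3 are the muscle-type isoforms Cox6a2, Cox7a1 and Cox8b, and 5 are other tissue-restricted isoforms, Cox4i2, Cox6b2, Cox7b2, Cox8c and Ndufa4l2. Ndufa4, listed here under complex I by its name, is now placed in complex IV. Common forms are all members in no other group, so Cox7a2l is counted among them by its name. Counts were found for 96 members and Cox7b2 had none in any cell.

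Oxidative phosphorylation moves electrons from NADH (complex I) and succinate (complex II) through complex III to oxygen at complex IV, and the proton gradient built on the way drives ATP synthesis by complex V. The catalytic cores of complexes I, III and IV are partly encoded by mitochondrial DNA, so these complexes hold protein subunits encoded in both genomes. Several complex IV subunits exist as pairs of isoforms, of which one is found in most tissues and the other in heart and skeletal muscle fibres, lung or testis. Cox4i2 and Ndufa4l2 are known for their abundance in pericytes and vascular smooth muscle and for their link to oxygen sensing.

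The 1753 cells came from skeletal muscle of male mice aged 10 to 20 weeks, were sorted as single cells into 384-well plates and were sequenced by Smart-seq2, a method that amplifies full-length cDNA of each cell. The labels name 5 strains: C57BL6, from which cells were taken by antibody to PDGFRα or PDGFRβ, and the reporter lines Acta2GFP, Cspg4dsRED and PdgfrbGFP and a pool of PdgfraGFP and PdgfrbGFP animals; CD31-positive endothelial cells were sorted out. No treatment is named for any group, the reporter lines were kept on a C57BL6 background, and a reporter marks cells by the activity of its promoter, so each line offers another mix of cells. The authors' cluster labels, 1 to 10, give mural cells (cluster 7, 187 cells), perimysial fibroblasts of the sheaths around fibre bundles (clusters 2 and 9, 328 cells), paramysial fibroblasts at the border of those sheaths (cluster 4, 60 cells), cluster 10, a fibroblast group marked by the nerve growth factor receptor gene Ngfr (62 cells), and endomysial fibroblasts between the fibres (clusters 1, 3, 5, 6 and 8, 1116 cells). No animal is named, so a strain label served as 1 replicate and p-values measure only the spread between these 5 cell sources. The clusters were made from the same counts, so differences between clusters describe the clustering. Levels are counts after each cell was scaled to 500000 counts without the ERCC spike-in RNAs, averaged over cells within a strain (scaled counts).

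Cells held between 46097 and 1055869 counts, with a median of 258251, and the median was 156959 in mural cells and 269496 in the 1566 fibroblasts. Members took 1.14% of all counts, and a median of 62 members was detected per cell. The labelled classes carried their markers: the 9 mural markers summed to between 1.91% and 2.49% of counts in mural cells of the 5 strains and to between 0.0107% and 0.0934% in fibroblasts, and the 5 fibroblast markers to between 0.0221% and 0.125% against 1.49% to 2.04%. Mural cells of C57BL6 numbered 9, of which 4 lay on a plate where immune cell markers took 0.223% of mural counts, against 0.00137% or less on every other plate. Fibroblasts of all plates carried low counts of some mural genes. Myh11 (smooth muscle myosin heavy chain) was seen in 99.0% of fibroblasts on the Acta2GFP plate and in 4.43% to 66.7% on other plates, and Rgs5 (a pericyte marker) in 71.3% there and in 63.1% on the gastrocnemius plate of the pool.

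Promoter windows, 250 bases before to 50 bases after the annotated start, were taken from RefSeq for GRCm38.p6 and matched 80 of the 97 members. The 17 members without a window included Cox4i1, Cox4i2, Cox6a2, Ndufa4l2 and Sdhc. These 4 windows are shown because they belong to genes on which the results turn: an isoform pair of which one form marks muscle fibres (Cox7a1 and Cox7a2), the complex IV transcript with the highest level per kilobase of exon (Cox8a) and the catalytic beta subunit of ATP synthase (Atp5b). Capitals mark matches, on either strand, to the letters searched for nuclear respiratory factor 1 (GCGCANGCG), GABPA (CCGGAAG), YY1 (AANATGGC), ERRA (TCAAGGTCA) and the short hypoxia response cores ACGTG and GCGTG.

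Cox7a1 (chr7:30183921-30184220, + strand): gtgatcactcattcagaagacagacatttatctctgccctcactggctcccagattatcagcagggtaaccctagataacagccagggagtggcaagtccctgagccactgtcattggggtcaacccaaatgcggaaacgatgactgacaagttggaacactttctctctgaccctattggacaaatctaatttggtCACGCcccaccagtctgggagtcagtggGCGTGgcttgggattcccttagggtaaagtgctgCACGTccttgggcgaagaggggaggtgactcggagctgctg
Cox7a2 (chr9:79759804-79760103, - strand): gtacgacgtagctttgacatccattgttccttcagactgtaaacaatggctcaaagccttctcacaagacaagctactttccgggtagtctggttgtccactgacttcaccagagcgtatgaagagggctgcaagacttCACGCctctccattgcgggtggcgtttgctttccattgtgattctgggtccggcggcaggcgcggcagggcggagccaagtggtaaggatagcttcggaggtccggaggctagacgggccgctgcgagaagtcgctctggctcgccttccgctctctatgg
Cox8a (chr19:7217567-7217866, - strand): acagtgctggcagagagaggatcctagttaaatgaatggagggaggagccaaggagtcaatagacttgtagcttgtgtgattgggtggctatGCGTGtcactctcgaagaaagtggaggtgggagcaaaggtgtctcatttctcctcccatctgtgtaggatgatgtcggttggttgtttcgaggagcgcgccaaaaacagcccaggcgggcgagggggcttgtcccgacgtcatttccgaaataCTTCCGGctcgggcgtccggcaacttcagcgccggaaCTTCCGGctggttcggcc
Atp5b (chr10:128083057-128083356, + strand): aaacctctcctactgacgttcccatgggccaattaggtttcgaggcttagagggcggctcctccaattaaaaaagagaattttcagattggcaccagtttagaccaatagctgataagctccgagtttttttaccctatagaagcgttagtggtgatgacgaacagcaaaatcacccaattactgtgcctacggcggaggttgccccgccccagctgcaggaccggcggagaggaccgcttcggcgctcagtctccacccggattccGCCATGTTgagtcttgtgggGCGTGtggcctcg

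The Cox8a window held 2 GABPA matches and 1 GCGTG match, and the Atp5b window 1 YY1 and 1 GCGTG match. Cox7a1 held 3 matches and Cox7a2 1 match, all to the short hypoxia cores, and no matches overlapped within these windows. Over the 80 members, NRF1 letters were found in 24 windows (30%, against 7.03% of 27025 genes), GABPA letters in 21 (26.3%, against 9.93%) and YY1 letters in 20 (25%, against 6.96%). ERRA letters stood in 2 windows (2.50%, against 0.47%). The core ACGTG was found in 20 (25%, against 21.8%) and GCGTG in 45 (56.3%, against 35.2%), both short enough to occur often in any window. These shares were not tested, and a match says only that the letters are present.

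Expression levels within each complex spanned a wide range. Per kilobase of exon and averaged over strains (n = 5), the most abundant complex I transcript was Ndufa2, an accessory subunit, at 126 ± 74.5 (SD) scaled counts, and the lowest subunit was Ndufab1, the mitochondrial acyl carrier protein, at 3.55 ± 1.59. The 4 subunits of complex II lay close together, from Sdhc, a membrane anchor, at 37.8 ± 21.98 to Sdha, the flavoprotein, at 43.9 ± 15.4, which do not differ beyond their spread. Complex III ran from Uqcrq at 24.1 ± 12.2 to Uqcr10 at 91.1 ± 50.7. In complex IV the common Cox8a reached 237 ± 114, followed by Cox6a1 at 210 ± 81.8 and Cox4i1 at 161 ± 40.9, 3 neighbours whose spreads overlap. In complex V, Atp5b stood at 147 ± 74.3 and Atp5a1, the alpha subunit, at 129 ± 60.3, whereas Atp5s was at 1.90 ± 0.761. The median over common subunits was 32.5 in complex I, 40.2 in complex II, 47.9 in complex III, 55.3 in complex IV and 37.3 in complex V. These ranks depend on the length used: per kilobase of mRNA the highest were Ndufb9, Sdhb, Uqcrh, Cox4i1 and Atp5b.

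Among isoforms, the common form was the more abundant in every pair but one. Per kilobase of exon over all cells, Cox6a2 stood at 0.551 ± 0.200, Cox7a1 at 2.71 ± 2.25 and Cox8b at 2.76 ± 1.62, each far under its common partner, and the testis form Cox6b2 at 1.86 ± 1.27. Cox8c, also a testis form, gave 2 counts in 1 cell. The exception was Ndufa4l2, at 108 ± 74.1 against 35.9 ± 18.8 for Ndufa4. Per kilobase of mRNA these 2 were closer, at 127 and 81.2. Atp5g1, Atp5g2 and Atp5g3, which encode the same mature c-ring subunit, stood at 8.44 ± 2.98, 15.9 ± 4.77 and 36.7 ± 12.8. More than 50% of the exonic windows of Atp5g2, Atp5l, Sdhaf1, Cox7c and Atp5o also occur in other annotated transcripts, so their counts are uncertain.

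Oxidative phosphorylation transcripts took a larger share of counts in mural cells than in fibroblasts of every strain. Members took 2.97% of mural counts in Acta2GFP, 1.63% in C57BL6, 2.46% in Cspg4dsRED, 2.74% in the pool and 2.54% in PdgfrbGFP, and 1.14%, 0.952%, 0.880%, 1.19% and 0.841% of fibroblast counts in the same order. The lowest mural value lay above the highest fibroblast value. The mean share was 2.47% ± 0.507 in mural cells and 1.00% ± 0.157 in fibroblasts (SD, n = 5), and the mural to fibroblast ratio averaged 2.49 ± 0.509 and ran from 1.71 in C57BL6 to 3.03 in PdgfrbGFP. Cell by cell, 90.4% of mural cells exceeded the value of 1.49% that marks the top 5% of fibroblasts, with medians of 2.61% and 0.938%. As a share over all members, these values are a description and were not tested.

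**Figure D1:**
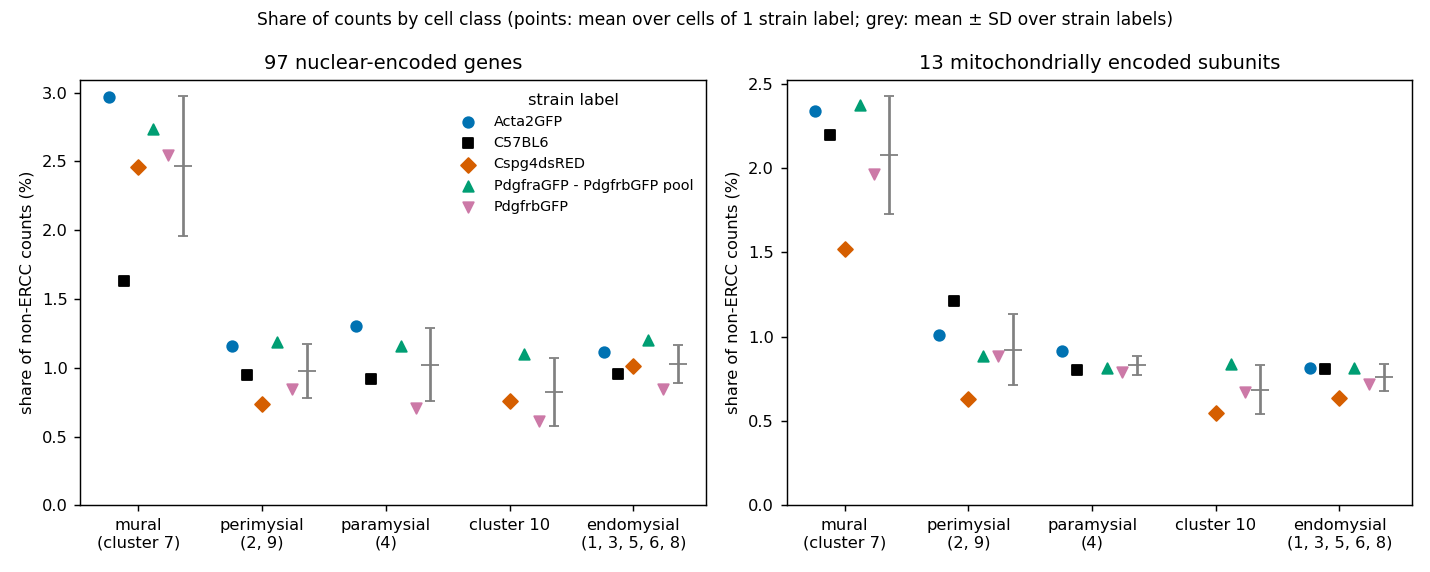
Share of non-ERCC counts (percent, y axes) taken by the 97 nuclear-encoded members (left) and by the 13 mitochondrially encoded subunits (right) in each cell class (x axes). Points are means over the cells of 1 strain and grey bars give mean and SD over strains; in the left panel the mural strains sit between 1.63% and 2.97%, above all points of the fibroblast classes.

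Summed shares of all 5 complexes were higher in mural cells. The mural to fibroblast ratio of summed shares averaged 2.39 ± 0.389 for complex I, 2.47 ± 0.759 for complex II, 2.85 ± 0.724 for complex III, 2.43 ± 0.559 for complex IV and 2.52 ± 0.547 for complex V (SD, n = 5). The ratio of complex III lay above that of complex IV in 5 of 5 strains and above that of complex I in 4 of 5, and differences between complexes were not tested. The 13 subunits encoded by mitochondrial DNA took 2.08% ± 0.350 of mural and 0.807% ± 0.142 of fibroblast counts, a ratio of 2.59 ± 0.230. Against the ERCC spike-in, added alike to each well, the median of the members' counts in mural cells was 1.06 to 2.81 times that of fibroblasts over the 5 strains, while the median total count was 0.515 to 0.905 times that of fibroblasts. Not every plate had this direction: on 1 C57BL6 plate the mean of the members' counts per ERCC count was 1.37 in 4 mural cells and 2.03 in 3 fibroblasts, and on the other it was 0.660 in 5 mural cells and 0.602 in 361 fibroblasts. Restricted to cells of 100000 to 300000 counts, a range chosen after the data were seen, the share was 1.70% to 2.89% in mural cells and 0.833% to 1.15% in fibroblasts.

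Of the 97 members, 94 passed the filter on low counts and entered edgeR's quasi-likelihood test with strain as a block, in which Cox6a2, Cox7b2 and Cox8c were left out. With Benjamini-Hochberg adjustment over all 13880 genes, 58 members were higher in mural cells and none was lower; 6.15% of all genes tested were called higher and 9.27% lower. At an unadjusted p under 0.05, 74 of 94 members and 3805 of 13880 genes passed. The median log2 fold change was 1.24 over the members and -0.46 over all genes, a distance of 1.70, and 65 of 94 members were higher in all 5 strains (10.1% of all genes were). For 39 members the lowest mural strain lay above the highest fibroblast strain (5.57% of all genes). The number called depended on the sources and the cells: it was 27 in cells of 100000 to 300000 counts, 34 with equal numbers of cells, 30 without Acta2GFP, 37 without the pool, 25 without PdgfrbGFP and 68 without C57BL6, with the members' median between 1.14 and 1.35 in these fits, and none was called lower in these fits. In the same order, 1352, 1144, 1453, 1485, 1230 and 2257 of all genes were called, against 2140 in the fit of all strains and cells. DESeq2 called 72 members higher and 1, Sdhaf3, lower.

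**Figure D2:**
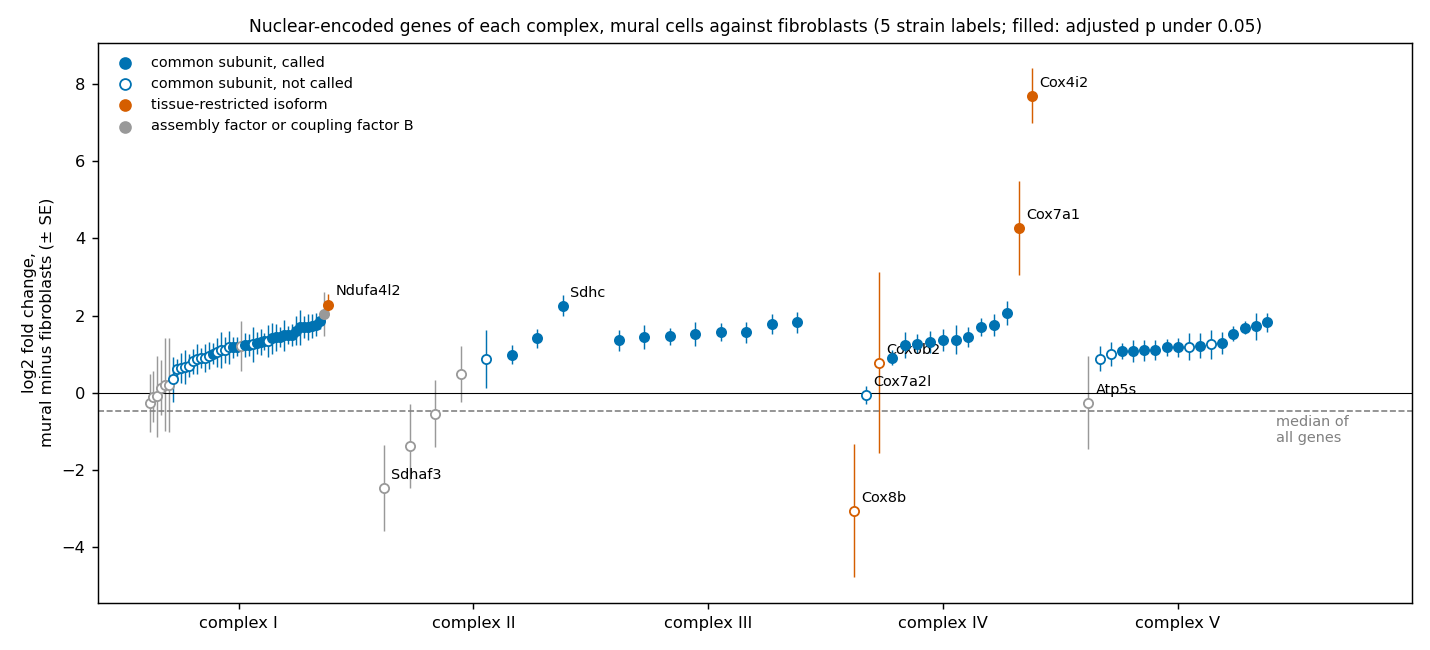
Mural against fibroblast log2 fold change (y axis, edgeR, bars for SE) of each tested member, grouped by complex (x axis), with filled points for members called at an adjusted p under 0.05 and a dashed line for the median of all genes at -0.46. Common subunits gather between -0.05 and 2.26, and Cox4i2 and Cox7a1 stand above them.

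By complex, all 8 complex III members rose, with log2 fold changes from 1.36 for Uqcrc2 to 1.83 for Uqcrfs1, the Rieske iron-sulfur protein. In complex IV, 10 of 11 common subunits rose, among them Cox5a (2.07 ± 0.32, SE), Cox7a2 (1.75 ± 0.28), Cox8a (1.71 ± 0.24), Cox6a1 (1.45 ± 0.26), Cox7b (1.37 ± 0.29), Cox6b1 (1.28 ± 0.25) and Cox4i1 (0.91 ± 0.20). In complex V, 12 of 16 common subunits rose, led by Atp5g3 (1.82 ± 0.24), Atp5k and Atp5b. Of the other c-ring genes, Atp5g1 rose (1.08 ± 0.30) and Atp5g2 was at 1.26 ± 0.38 (edgeR adjusted p = 0.0558). In complex II, 3 of 4 subunits rose, and Sdhd, a membrane anchor, did not pass (0.87 ± 0.75). Complex I had the lowest proportion, with 21 of 37 common subunits. The 16 common complex I subunits that did not pass ranged from 0.35 for Ndufb4 to 1.35 for Ndufs3. Whether this proportion differs between complexes was not tested.

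Of the 12 assembly factors, which build the complexes without staying in them, 1 was called, Ndufaf4, where 6.15% of all genes were called higher (2.05 ± 0.57, edgeR adjusted p = 0.0416), and it was called in 4 of 15 alternative fits. The median over the 12 was 0.02, with 9 of 12 above the median of all genes, and the difference from subunits was not tested. Their values ran down to -2.47 for Sdhaf3, seen at 0.0692 to 3.95 scaled counts in mural strains and 2.39 to 8.34 in fibroblasts. These genes are low, so a difference of the size seen for subunits may not have been detectable at this depth. Atp5s was at -0.26 ± 1.204.

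Cox7a2l, counted with the common subunits by its name, had the lowest log2 fold change of these 76 genes. It stood at 84.5, 93.2, 112, 57.8 and 94.0 scaled counts in mural cells of Acta2GFP, C57BL6, Cspg4dsRED, the pool and PdgfrbGFP, and at 88.1, 107, 100.1, 92.3 and 88.6 in fibroblasts. The groups overlapped throughout, and it was higher in mural cells of 2 strains. Its log2 fold change was -0.05 ± 0.24 (edgeR adjusted p = 0.924), and the sign turned with the scaling, to 0.03 with RLE size factors. Set against the median of all genes, that is a distance of 0.41.

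The catalytic beta subunit shows the pattern of the common forms. Atp5b stood at 1316, 786, 1971, 877 and 1623 scaled counts in mural cells and 499, 318, 477, 376 and 449 in fibroblasts, in the same order of strains. No mural strain reached down to the fibroblast values. The gene is ENSMUSG00000025393 at chr10:128083273-128090391 on the plus strand (GRCm38). The log2 fold change was 1.68 ± 0.17 (edgeR adjusted p = 0.000434), called in 15 of 15 alternatives. Sdhc, the membrane anchor that holds heme with Sdhd, gave 363, 168, 438, 286 and 294 in mural cells and 61.3, 71.5, 80.2, 76.0 and 49.6 in fibroblasts, again without overlap (2.26 ± 0.27, edgeR adjusted p = 0.00104).

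Cox4i2 had the largest difference of all members. Mural cells held 141 scaled counts in Acta2GFP, 60.9 in C57BL6, 92.3 in Cspg4dsRED, 212 in the pool and 123 in PdgfrbGFP, and fibroblasts 1.79, 0.354, 0.0244, 0.957 and 1.1999. The groups were far apart (log2 fold change 7.70 ± 0.71, edgeR adjusted p = 0.000329, called in 15 of 15 alternatives). The gene (ENSMUSG00000009876, chr2:152754173-152765037, plus strand, GRCm38) was seen in 71.1% of mural cells (exact 95% interval 64.1% to 77.5%) and in 7.54% of fibroblasts (6.28% to 8.96%); such intervals cover counting error only. On the Acta2GFP plate 43.6% of fibroblasts had a Cox4i2 count, at a mean of 1.79, where the mural markers above were also seen, and on the other plates with more than 3 fibroblasts 0.935% to 10.4% had one. The part of carried-over RNA in these counts was not tested.

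Its partner Cox4i1 is the form found in most cells, and both were present together. Cox4i1 stood at 488, 336, 283, 404 and 385 in mural cells and 247, 239, 162, 289 and 160 in fibroblasts, with overlap between the pool fibroblasts and Cspg4dsRED mural cells. By exon length, Cox4i2 made up 38.2%, 28.5%, 41.3%, 53.0% and 40.1% of the pair in mural cells and 1.23%, 0.449%, 0.0405%, 0.637% and 1.43% in fibroblasts. The mean shares were 40.2% ± 8.75 and 0.757% ± 0.569 (SD, n = 5), a difference of 39.5 percentage points that was positive in 5 of 5 strains (exact two-sided sign-flip permutation test, p = 0.0625, 0.0781 adjusted over 5 pairs). With 5 strains 0.0625 is the smallest p this test can give, so no pair could pass 0.05. The size of the share depends on the length used. Exon lengths are 1550 bases for Cox4i1 and 788 for Cox4i2, whereas their mRNAs are 765 and 733. From raw counts without a length, the difference was 25.4 points, again positive in 5 of 5 strains.

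**Figure D3:**
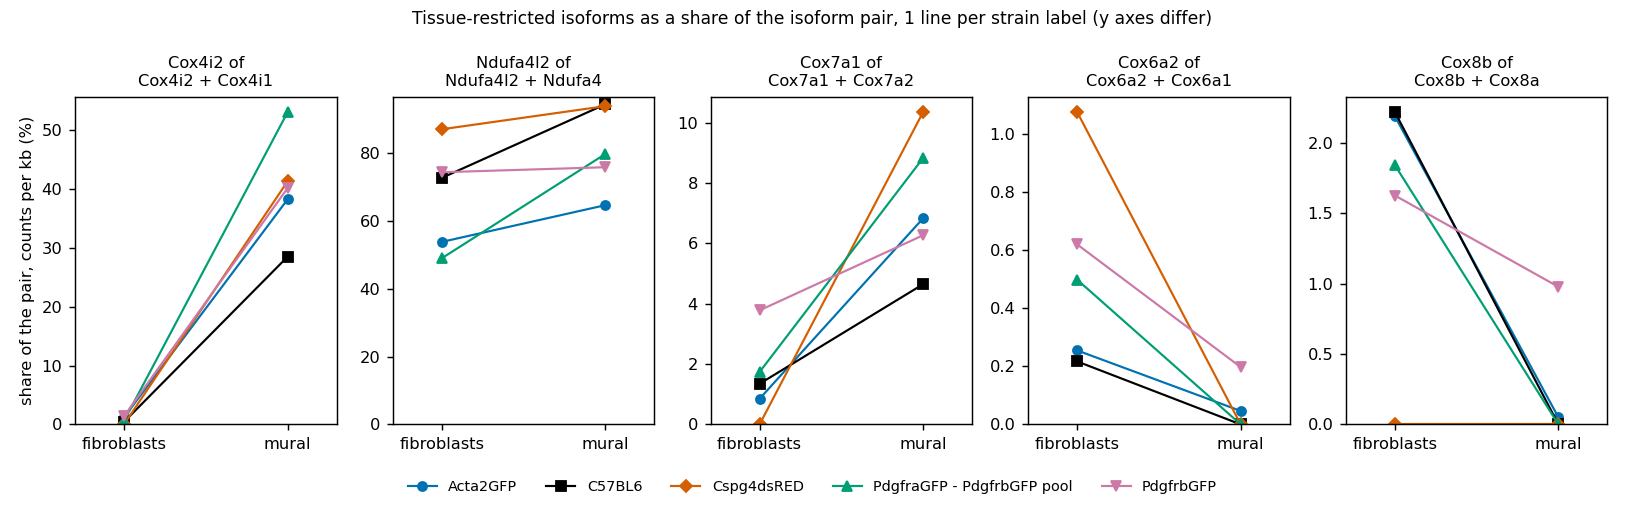
Share of the restricted isoform in its pair (percent of counts per kb of exon, y axis) in fibroblasts and mural cells (x axis), with a panel and its own y scale for each of 5 pairs and a line for each strain. Cox4i2 rises from 1.43% or less in fibroblasts to between 28.5% and 53.0% in mural cells, and Cox6a2 and Cox8b stay at 2.22% or less in both.

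Ndufa4l2, known as a target of hypoxia-inducible factor that lowers complex I activity, was high in both classes and higher in mural cells. It stood at 237, 425, 450.4, 308 and 250 scaled counts in mural cells and 52.8, 72.5, 126, 52.3 and 65.6 in fibroblasts. Without overlap, the log2 fold change was 2.29 ± 0.26 (edgeR adjusted p = 0.000814, called in 15 of 15 alternatives). Ndufa4 was at 0.96 ± 0.34 (edgeR adjusted p = 0.105). Ndufa4l2 made up 81.6% ± 12.6 of the pair in mural cells and 67.3% ± 15.7 in fibroblasts, higher in 5 of 5 strains (difference 14.3 points, exact p = 0.0625, 0.0781 adjusted). The difference ran from 1.48 points in PdgfrbGFP to 30.7 in the pool. With counts summed over strains, the share was 80.5% in mural, 83.0% in perimysial and 57.4% in endomysial cells. It was lower still in the other fibroblast classes. Within the perimysial class it was 87.5% in cluster 2 and 30.4% in cluster 9. A high share was therefore not limited to mural cells, and differences between these classes were not tested. Exon lengths are 1381 bases for Ndufa4 and 1095 for Ndufa4l2, but their mRNAs are 610 and 934, so shares are lower by mRNA length. In raw counts fibroblasts held 61106 of Ndufa4l2 and 43639 of Ndufa4, so which form leads there depends on the length used. From raw counts the mural difference was 15.7 points, in 5 of 5 strains. In GRCm38 the gene lies at chr10:127514967-127517154 on the plus strand.

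Cox7a1, the heart and muscle isoform, was low in both classes and higher in mural cells. The gene is ENSMUSG00000074218 at chr7:30184144-30186078 on the plus strand (GRCm38). It gave 8.27, 2.81, 3.48, 23.6 and 3.40 scaled counts in mural cells and 0.777, 0.230, 0, 0.678 and 0.626 in fibroblasts. The lowest mural value exceeded the highest fibroblast value, and the pool stood above the other mural strains. The log2 fold change was 4.27 ± 1.22 with an edgeR adjusted p of 0.0477, close to the threshold, and it was called in 5 of 15 alternatives with adjusted p from 1.89e-06 to 0.145. Cells with a count made up 19.8% of mural cells (exact 95% interval 14.3% to 26.2%) and 3.38% of fibroblasts (2.55% to 4.404%). As a share of the pair with Cox7a2 it was 7.38% ± 2.23 against 1.54% ± 1.41 (difference 5.84 points in 5 of 5 strains, exact p = 0.0625, 0.0781 adjusted).

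The other muscle-type isoforms did not share that direction. Cox8b gave 0.159, 0, 0, 0 and 1.17 scaled counts in mural cells and 1.94, 1.26, 0, 1.502 and 0.964 in fibroblasts (log2 fold change -3.05 ± 1.73, edgeR adjusted p = 0.312). Cells with a count were 1.60% of mural cells and 6.00% of fibroblasts, the latter of greater depth. Cox6a2 was seen in 3.21% of mural cells and 2.23% of fibroblasts, at 0.473 scaled counts or less in each mural strain and 0.615 or less in each fibroblast strain, and did not pass the filter. The testis form Cox6b2 was seen in 5.88% and 5.75% of cells (log2 fold change 0.78 ± 2.34, edgeR adjusted p = 0.881), with a sign that depended on the fit. As shares of their pairs, Cox6a2 was 0.485 points lower in mural cells (5 of 5 strains, exact p = 0.0625, 0.0781 adjusted) and Cox8b 1.37 points lower (4 of 5 strains, with Cspg4dsRED at 0 in both classes, exact p = 0.125). Mural Cox6a2 rested on 11 counts in 6 cells, and its share was 0 in C57BL6, Cspg4dsRED and the pool. With 9 mural cells in C57BL6 and 11 in the pool, the direction of its share is uncertain at this floor. Cox7b2 had no count in 187 mural cells or 1566 fibroblasts, which allows shares of up to 1.95% and 0.235% (exact 95% limits).

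Transcripts of muscle fibres were present at low level in all classes, and their values stand beside those of the muscle-type isoforms. The 19 fibre markers summed to between 0.0069% and 0.0410% of mural counts and 0.0204% to 0.0340% of fibroblast counts over the strains, and the markers differed in direction. Acta1 (skeletal actin) had a count in 90.9% of the mural class and 50.9% of the fibroblasts, whereas Ckm (muscle creatine kinase) had one in 8.56% and 25.4% and Atp2a1 (the fibre calcium pump) in 5.35% and 16.2%. In mural cells Acta1 had the highest mean of the 19, at 38.9 scaled counts. Sequence shared with other genes was checked for members and not for fibre markers. Whether mural Acta1 counts hold reads of the smooth muscle actin gene Acta2 was not tested. The 35 fibroblasts with a Cox6a2 count held a median of 136 scaled counts of fibre markers, against 9.11 in the 1531 without. For Cox8b the medians were 18.5 in 94 fibroblasts with a count and 9.29 in those without, and for Cox7a1 13.5 in 53 fibroblasts and 9.67. In mural cells, the 37 with a Cox7a1 count held a median of 29.1 and a mean of 61.5, and the 150 without held 24.1 and 106. The medians were 95.8 in the 6 mural cells with a Cox6a2 count against 24.2, and 1187 in the 3 with a Cox8b count against 24.5. The part of fibre RNA in these isoforms was not tested.

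Other genes of energy metabolism were read from lists in the same fit. Of the 13 mitochondrially encoded subunits, 12 were tested and 9 rose (median log2 fold change 1.57), including mt-Nd5 (1.87 ± 0.16). In the tricarboxylic acid cycle, 7 of 13 rose (median 1.38), led by Idh3a, a subunit of isocitrate dehydrogenase (2.08 ± 0.29). Glycolysis genes rose as well, 9 of 14 (median 1.25), with Gpi1, glucose-6-phosphate isomerase, at 1.98 ± 0.24. Of 32 other assembly factors and carriers, 2 rose, Cycs (cytochrome c, 1.98 ± 0.54) and Tmem70 (1.46 ± 0.41), with a median of 0.42, a share close to the 6.15% of all genes called higher. None of 11 tested regulators of mitochondrial biogenesis was called by edgeR, and none had an unadjusted p under 0.05 (median -0.04). Of 12 hypoxia genes, Epas1 (4.52 ± 0.32) and Hif1a (1.32 ± 0.24) rose and Adm fell by 6.43. The lists were chosen with earlier results of these data known, and their counts are a description beside the median of -0.46 over all genes.

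Mural cells differed among plates in their own markers. Kcnj8, a pericyte channel gene, averaged 968 scaled counts in the 5 mural cells of 1 C57BL6 plate and 1350 in the 6 of the gastrocnemius plate of the pool, and 25.99 or less on every other plate. Members took 1.41% and 2.57% of counts in these groups of cells, and 1.90% to 2.97% in mural cells of the other plates. Myh11 was found on all plates, at a mean of 488 or more. Acta2, the smooth muscle actin gene, averaged 4742 scaled counts in the 56 mural cells of Acta2GFP and 7090 in the 74 of Cspg4dsRED. The paper reports that only a few pericytes were captured from skeletal muscle, so the mural values should not be read as those of pericytes. Within the 3 strains with 30 or more mural cells, Spearman's rho over cells between the members' share and each of 7 pericyte or smooth muscle markers ran from -0.306 to 0.378. For Acta2 it was 0.378 in Acta2GFP, -0.0556 in Cspg4dsRED and 0.152 in PdgfrbGFP. These cells share plates and differ in depth, and the values are a description.

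**Figure D4:**
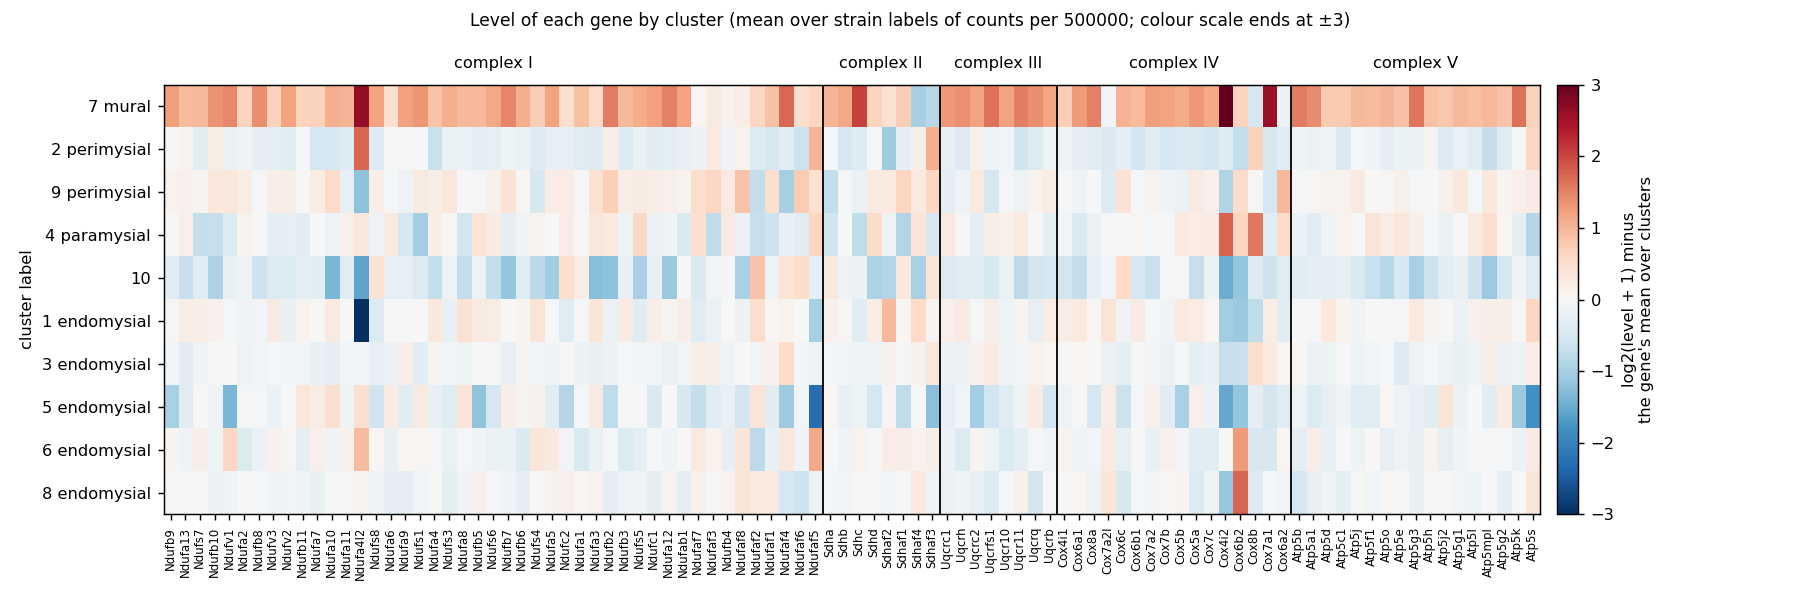
Levels of 94 members (columns, grouped by complex) in clusters 1 to 10 (rows), as log2(level + 1) minus the mean of the gene over clusters, where the level is the mean over strains of scaled counts and the colour scale ends at 3 in either direction. The row of cluster 7, the mural cells, is high for nearly all common subunits but not for Cox7a2l.

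The share of counts taken by the members overlapped between strains of the fibroblast classes. It was 1.03% ± 0.138 in endomysial and 0.977% ± 0.197 in perimysial cells (n = 5), 1.02% ± 0.264 in paramysial cells (n = 4) and 0.824% ± 0.249 in cluster 10 (n = 3), means over different sets of strains, and the differences were not tested. The median over cells ran from 0.784% in cluster 10 to 1.13% in paramysial cells. Each of these classes was compared with the endomysial cells, which therefore serve as a shared control.

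Between perimysial and endomysial fibroblasts, edgeR called 0 of 95 members in either direction, where 2.32% of 14121 genes were higher and 3.26% lower. At an unadjusted p under 0.05 stood 2 of 95 members and 2233 of 14121 genes. The members were Ndufa4l2 and Ndufb2, the same pair that DESeq2 called. The members' median log2 fold change was 0.01 and that of all genes -0.19. Ndufa4l2 was at 1.14 ± 0.33 (edgeR adjusted p = 0.118, 0.0219 to 0.981 over 15 alternatives). Within the class it was uneven: in cluster 2 it stood at 89.9, 112, 389, 132 and 177 scaled counts in Acta2GFP, C57BL6, Cspg4dsRED, the pool and PdgfrbGFP, and in cluster 9 at 14.4, 35.5, 33.4 and 4.64 in the 4 strains other than Cspg4dsRED. These clusters did not overlap, and the difference between them was not tested.

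Paramysial cells gave 0 of 94 members called by edgeR (0.0757% of 14533 genes higher and 0.0206% lower). At an unadjusted p under 0.05 stood 981 of 14533 genes and 1 member, Sdha (-0.90 ± 0.35, edgeR adjusted p = 0.627). DESeq2 called no member. The median was -0.10 against -0.86 for all genes. Cluster 10 gave 0 of 90 (0.265% of 12455 genes higher and 0.177% lower). At an unadjusted p under 0.05 stood 1113 of 12455 genes and 2 members, Ndufa4l2 and Atp5a1. DESeq2 called 1 member, Ndufa4l2. Its level in cluster 10 was 20.2, 24.2 and 5.93 scaled counts in Cspg4dsRED, the pool and PdgfrbGFP (log2 fold change -2.45 ± 0.69, edgeR adjusted p = 0.358). The members' median, -0.41, equalled that of all genes. In counts simulated for these comparisons, the genes changed were of all levels and moved by more than the members' mural median of 1.24. At most 14% of these changes were recovered for paramysial cells and at most 24% for cluster 10. Paramysial sums held 46 cells in the pool, 6 in Acta2GFP, 4 in PdgfrbGFP and 3 in C57BL6. For the mural comparison, where 58 members were called, at most 40% were recovered. Recovery was not split by level, so the simulation does not give the power for the members. In classes of 60 and 62 cells, a difference of the size seen in mural cells may still be missed.

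Among the 5 endomysial clusters, edgeR called 3 of 95 members (5.46% of 16498 genes). The median range between the highest and lowest cluster was 0.56 on the log2 scale for members and 1.97 for all genes. The members called were Cox6b2, Ndufa4l2 and Atp5b, and they differ in kind.

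Ndufa4l2 separated cluster 1 from the others. It was at 6.78, 0.436, 3.09 and 6.36 scaled counts in cluster 1 of Acta2GFP, C57BL6, the pool and PdgfrbGFP, and its means were 49.8 ± 8.59 in cluster 3 (n = 4), 74.2 ± 39.3 in cluster 5 (n = 3), 103 ± 18.95 in cluster 6 (n = 4) and 55.7 ± 25.5 in cluster 8 (n = 4). Every value of cluster 1 lay under every value of the other clusters. The range was 4.56 on the log2 scale (edgeR adjusted p = 0.00960, called in 10 of 13 alternatives). Counts were found in 37.9% of cluster 1 cells and 79.7% of cluster 6 cells.

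Cox6b2, the testis isoform of a subunit that faces the intermembrane space, was highest on average in clusters 8 and 6 among the endomysial clusters, with strains of both overlapping those of cluster 3. In cluster 8 it stood at 12.4, 0.879, 4.80 and 7.81 scaled counts in Acta2GFP, C57BL6, the pool and PdgfrbGFP and in cluster 6 at 5.58, 0.113, 1.98 and 10.0 in C57BL6, Cspg4dsRED, the pool and PdgfrbGFP. In cluster 1 it was at 0.108 or less in each strain, in cluster 3 at 1.06 or less, and in cluster 5 none of 31 cells had a count (exact upper limit 11.2%). Cells with a count made up 15.02% of cluster 8 and 7.36% of cluster 6 (edgeR adjusted p = 0.00384, called in 10 of 13 alternatives). Atp5b moved little, from 314 ± 59.9 in cluster 8 to 461 ± 85.8 in cluster 3 (range 0.57, edgeR adjusted p = 0.0370), and was called in 4 of 13 alternatives. None of the 3 was called without the pool, without PdgfrbGFP, or in cells of 100000 to 300000 counts.

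**Figure D5:**
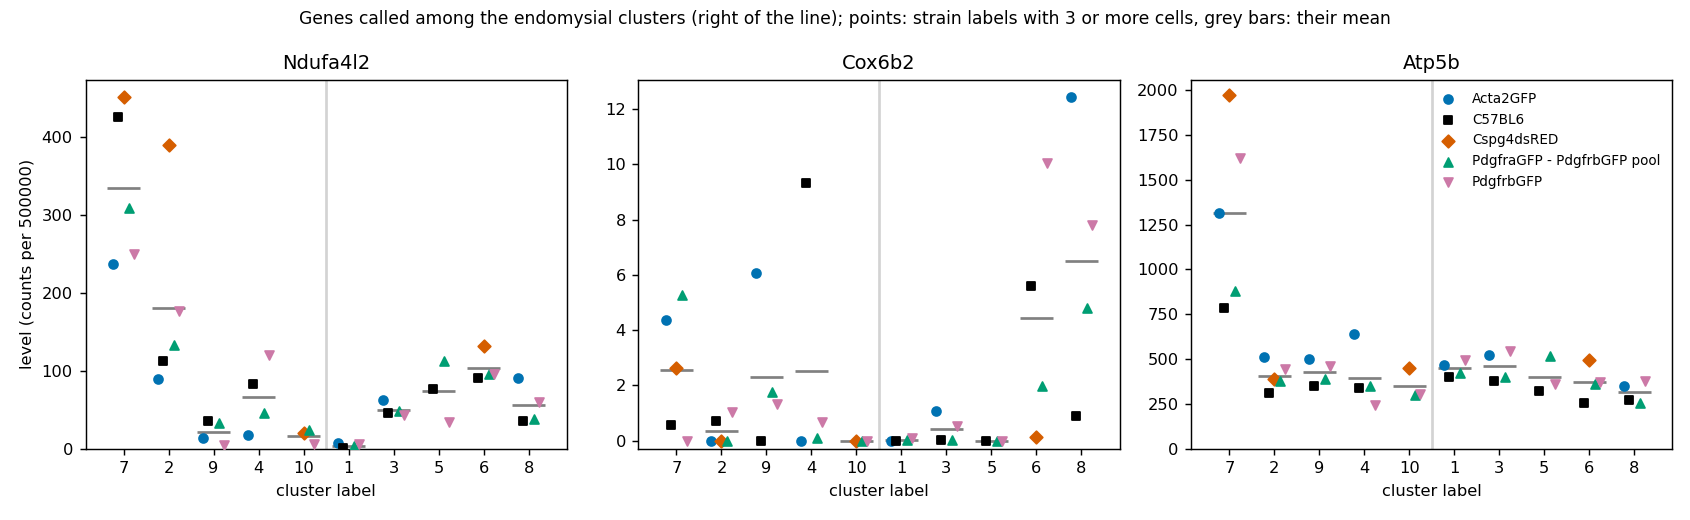
Scaled counts (y axes, linear) of Ndufa4l2, Cox6b2 and Atp5b in clusters 1 to 10 (x axes), with a point for each strain with 3 or more cells and a grey bar for the mean; endomysial clusters stand right of the line. Ndufa4l2 lies between 0.436 and 6.78 in cluster 1 and at 33.8 or more in the other endomysial clusters.

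Soleus, a slow oxidative muscle, and gastrocnemius, a mixed muscle, were kept apart in the pool and in PdgfrbGFP, and endomysial cells were compared between them. In the pool each muscle filled a plate of its own, so muscle and plate cannot be told apart there. Members took 1.304% of counts in soleus and 1.14% in gastrocnemius cells of the pool and 0.862% and 0.691% in PdgfrbGFP, so soleus was higher in both. The test called 0 of 95 members, and 0 of 16337 genes (0% higher and 0% lower), with 2 members and 807 genes at an unadjusted p under 0.05. DESeq2 called 111 genes and 0 members. The members' median was 0.19 and that of all genes -0.02, a distance of 0.20. Above 0 were 72 of 95 members and 7979 of 16337 genes. In cells of cluster 3 only, the medians were 0.08 and 0.03, a distance of 0.056, with 55 of 93 members above 0. In cells of 100000 to 300000 counts the distance was 0.31. The endomysial cells of each muscle mix several clusters. Whether the higher share in soleus reflects that mix was not tested.

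The members with an unadjusted p under 0.05 were Cox6a2 and Ndufa4l2. Cox6a2 stood at 0.395 and 0.375 scaled counts in soleus cells of the pool and PdgfrbGFP and at 0.00527 and 0 in gastrocnemius cells (edgeR adjusted p = 0.967). Ndufa4l2 was at 63.4 and 62.9 in soleus and 39.8 and 40.9 in gastrocnemius (log2 difference 0.69 ± 0.21, edgeR adjusted p = 0.967). Cox8b was at 3.39 and 1.23 in soleus against 0.474 and 0.306, and Cox7a1 at 1.25 and 0.582 against 0.500 and 0.299. All 4 were higher in soleus of both sources. Beside them, the 19 fibre markers summed to 0.0251% of counts in soleus and 0.0343% in gastrocnemius cells of the pool and to 0.0154% and 0.0248% in PdgfrbGFP, and 6 of 18 tested had an unadjusted p under 0.05. With a pair of sources the comparison has little power.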

How the data were processed

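Single cells were profiled by Smart-seq2. Per the methods and labels, the authors trimmed reads, mapped them to GRCm38 (mm10) with TopHat2, counted reads per gene with featureCounts, removed low-quality cells and clustered the rest with pagoda2. The deposited values are raw counts per gene and cell, for 46517 genes and 92 ERCC spike-ins in 1753 cells, and 1 column was not used because it belongs to no sample. Symbols were found for 46005 identifiers. The members and lists were chosen with earlier results of these data known.

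Each cell was scaled to 500000 counts without ERCC for levels. For tests, raw counts were summed per strain label and class, sums of fewer than 3 cells were left out, low genes were filtered, and edgeR 4.0.16 (R 4.3.3) quasi-likelihood fits with TMM and strain as a block were used with Benjamini-Hochberg adjustment at 0.05. The block rests on the strain label; C57BL6, PdgfrbGFP and the pool each lay on 2 plates, over which mural cells and fibroblasts were unevenly spread. Isoform shares were compared by exact two-sided sign-flip permutation. Alternatives used DESeq2 1.42.0, limma 3.58.1 on log2(scaled counts + 1), other scalings and filters, plates as units and each strain left out. Scripts ran in Python 3.11.15 and were tested on simulated data. Genes named by rule were, in each comparison, all called members where 12 or fewer were called and otherwise the 6 that rose and the 6 that fell most, the isoform groups, and the highest and lowest member of each complex per kilobase of exon; other genes were named after their values were seen, and 1 member is not reported here by name. Totals per cell ran from 46097 to 1055869 counts, which limits precision for low genes.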

Additional observations from a re-analysis of the deposited data

Results flagged for a closer look

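In 72 groups of 4 or 5 strains, 7 had a strain far from the others by Dixon's criterion, which chance gives in about 1 group in 20. Cox7a1 in mural cells stood at 23.6 scaled counts in the pool, against 2.81 to 8.27 elsewhere. Ndufa4l2 in fibroblasts was 126 in Cspg4dsRED, against 52.3 to 72.5. Atp5s in fibroblasts was 5.90 in PdgfrbGFP, against 2.71 to 3.18. Cox8b in mural cells was 1.17 in PdgfrbGFP, against 0 to 0.159, and its share of the pair with Cox8a 0.978% there, against 0% to 0.0501%. The Cox6a2 share in mural cells was 0.198% in PdgfrbGFP, against 0% to 0.0464%. In fibroblasts the Cox8b share was 0% in Cspg4dsRED, against 1.63% to 2.22%.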

How the results depend on the processing

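DESeq2 called Sdhaf3 lower in mural cells (adjusted p = 0.0173), and no other alternative called a member lower. The members' median stayed 1.28 to 2.04 above that of all genes, which itself ran from -0.89 to 0.07. The 58 mural calls became 32 with no filter, 34 with equal cells, 27 in cells of 100000 to 300000 counts and 25 to 68 with a strain left out; 42 with plates as units and 73 with DESeq2, of which 72 were higher. Without the replicate block, 56 were called. Over all genes, mural calls were 2005 with no filter, 1144 with equal cells and 1352 in the depth range. They were 1230 to 2257 with a strain left out, 2135 with plates and 2144 without the block. Perimysial calls were 2 with DESeq2 and 0 to 1 with a strain left out, and cluster 10 gave 1 with DESeq2. The 3 endomysial calls became 12 with DESeq2, 5 with plates, 0 in the depth range, 2 without the replicate block and 0 to 2 with a strain left out. Over all genes these fits called 2574, 1783, 164, 844 and 242 to 737, in the same order. The depth range and scaling by library size alone were chosen after seeing the data. Signs turned for Atp5s in mural cells (-0.76 at its lowest with a strain left out, 0.35 without the block, 0.40 with 10 or more cells and without C57BL6, 0.0026 with limma, 1.38 with equal cells, 0.45 in the depth range), Cox6b2 (2.18 at its highest with a strain left out, -0.90 with plates, -0.64 without Cspg4dsRED, -0.58 without the pool, -1.54 in the depth range), Cox7a2l (-0.13 at its lowest with a strain left out, 0.026 with RLE and DESeq2, 0.0069 without Acta2GFP, 0.11 with equal cells, 0.050 in the depth range) and perimysial Ndufa4l2 (-0.10 in the depth range). The cause was not tested. Over all genes, DESeq2 called 4336 rather than 2140 in mural cells, 2068 rather than 787 in perimysial, 796 rather than 14 in paramysial, 993 rather than 55 in cluster 10 and 2574 rather than 900 among endomysial clusters. Paramysial sums of 10 or more cells could not be fitted.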
